A study of Mus musculus with 9 samples.

Results

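Open chromatin was examined at 48 transcription factor genes that pattern the limb and skeleton, all outside the Hox clusters, out of 21887 protein-coding genes. The genes were taken by name, with earlier results of these data known. Peaks were counted within 50 kb of each gene and within 1000 bp of its ends in the ATAC-seq peak list of every library. The 9 libraries came from 3 mouse cell lines, each derived from a primary osteosarcoma, a tumour of bone, and grown in DMEM with serum. The R172H line carried p53R172H over a null allele (p53R172H/-), the R245W line carried p53R245W over a null allele (p53R245W/-), and the null line had no p53 allele left (p53-/-), with 3 libraries per line. All 3 lines thus lack a wild-type copy of p53. Each genotype was 1 line, so genotype and line cannot be told apart. The labels do not say that the libraries of a line were separate cultures, so p-values measure no more than the spread among libraries of a line, which may be technical. The series title asks about transcriptional profiles under different p53 mutants.

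In the embryo these factors divide the early limb bud and the somites into regions before bone forms. Tbx5, Tbx4 and Pitx1 set up the forelimb and hindlimb fields. Meis and Shox2 proteins act in the proximal limb, Hand2 acts upstream of Shh at the posterior margin, and Lmx1b marks dorsal mesenchyme. Prrx, Alx, Dlx and Msx homeodomain proteins then act in the mesenchyme that becomes cartilage and bone, and Pax1, Pax9, Nkx3-2 and the Meox proteins act in the somites that form the axial skeleton. Many of these genes are regulated from distant enhancers, so a window of 50 kb sees a part of their regulatory DNA.

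The promoters that differed most plainly between lines, by a peak over the promoter itself, were those of En1, Msx1, Hand2 and Six2. RefSeq promoters (GRCm38.p6, 250 bases before to 50 after the start) were matched for 28 of the 48 genes. They were ranked by the percentile of the peak over them, which is the rank of its -log10 p within its own library's list, from 0 for the weakest to 100 for the strongest. En1, Msx1 and Hand2 had a peak over the promoter in 3 of 3 R172H libraries and 3 of 3 R245W libraries, against 0 of 3 null libraries, and Six2 in 0 of 3 R172H, 3 of 3 R245W and 0 of 3 null libraries. Dlx1 and Foxc1, open in all 9 libraries with the strongest peaks, are given for contrast. Capitals mark matches, on either strand, to CCAAT, to TATAAA, to GGGCGG, to TGANTCA or to TAATTA, and no match overlaps one of another motif in the sequences below. They lie at chr1:120602237-120602536 (+ strand) for En1, chr5:37824536-37824835 (- strand) for Msx1, chr8:57320733-57321032 (+ strand) for Hand2, chr17:85688205-85688504 (- strand) for Six2, chr2:71529195-71529494 (+ strand) for Dlx1 and chr13:31806396-31806695 (+ strand) for Foxc1, and each is printed 5′ to 3′ on its own strand.
En1: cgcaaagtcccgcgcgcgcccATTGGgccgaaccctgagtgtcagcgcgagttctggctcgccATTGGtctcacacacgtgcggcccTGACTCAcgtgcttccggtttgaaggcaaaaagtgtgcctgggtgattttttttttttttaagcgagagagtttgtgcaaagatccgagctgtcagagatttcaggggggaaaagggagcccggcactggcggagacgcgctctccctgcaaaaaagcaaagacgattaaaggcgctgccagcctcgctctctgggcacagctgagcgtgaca
Msx1: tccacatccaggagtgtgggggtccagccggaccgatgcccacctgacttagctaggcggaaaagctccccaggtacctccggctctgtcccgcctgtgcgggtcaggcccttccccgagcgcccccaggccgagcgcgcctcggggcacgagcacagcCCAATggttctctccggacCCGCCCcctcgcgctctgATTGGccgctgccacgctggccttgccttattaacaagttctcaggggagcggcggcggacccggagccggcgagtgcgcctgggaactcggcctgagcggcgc
Hand2: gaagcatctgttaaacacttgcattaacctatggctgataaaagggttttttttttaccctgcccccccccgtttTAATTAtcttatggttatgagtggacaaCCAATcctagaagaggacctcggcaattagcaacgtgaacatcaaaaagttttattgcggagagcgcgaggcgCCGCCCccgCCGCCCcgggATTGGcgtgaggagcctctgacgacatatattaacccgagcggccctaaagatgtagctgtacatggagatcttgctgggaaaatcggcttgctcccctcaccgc
Six2: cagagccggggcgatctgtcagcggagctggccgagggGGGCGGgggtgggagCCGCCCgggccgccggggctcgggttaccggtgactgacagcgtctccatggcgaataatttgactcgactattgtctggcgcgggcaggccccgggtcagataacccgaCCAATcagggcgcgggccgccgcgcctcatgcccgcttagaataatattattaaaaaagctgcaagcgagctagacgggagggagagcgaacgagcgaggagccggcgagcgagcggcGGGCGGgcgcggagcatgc
Dlx1: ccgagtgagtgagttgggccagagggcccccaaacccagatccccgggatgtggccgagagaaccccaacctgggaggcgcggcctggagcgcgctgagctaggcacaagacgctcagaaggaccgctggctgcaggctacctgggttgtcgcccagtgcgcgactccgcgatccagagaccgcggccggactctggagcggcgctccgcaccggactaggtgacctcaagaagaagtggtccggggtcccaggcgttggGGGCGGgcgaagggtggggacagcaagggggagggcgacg
Foxc1: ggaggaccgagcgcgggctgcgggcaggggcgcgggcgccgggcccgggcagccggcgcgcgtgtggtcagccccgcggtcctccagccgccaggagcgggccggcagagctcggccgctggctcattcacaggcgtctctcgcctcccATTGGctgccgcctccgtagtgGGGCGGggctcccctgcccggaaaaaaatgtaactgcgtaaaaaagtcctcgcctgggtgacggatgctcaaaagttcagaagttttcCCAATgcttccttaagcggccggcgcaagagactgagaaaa

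The promoters were rich in G and C. The 29 member promoters (28 genes, 1 of them with a second promoter) had a median of 22 CG dinucleotides and 60.7% G and C, against 7 and 52.7% over 32851 RefSeq promoters. GGGCGG was in 62.1% of member promoters and 35.7% of all, and CCAAT in 51.7% and 37.4%. TAATTA, the core of many homeodomain sites, was in 13.8% of member promoters and 5.29% of all, TATAAA in 13.8% and 13.6%, and TGANTCA in 3.45% and 7.81%. These letters describe the windows and say nothing of which factor binds them.

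At Hand2 the 3 lines separated cleanly. In R172H libraries the peak over the start ranked at percentiles 84.8, 87.1 and 87.1, and in R245W libraries at 73.5, 73.3 and 70.2, whereas no null library had a peak there. At En1 the null line was open beside the promoter rather than over it. The R172H peaks began 177, 218 and 94 bp before the start and the R245W peaks 511, 510 and 492 bp before it, against null peaks that began 290, 302 and 348 bp after it. Msx1 had a similar arrangement, with strong peaks over its start in both mutant lines (percentiles from 78.2 to 89.0). The null peaks lay past the start and were weak, at percentiles 2.49 and 1.24 in null libraries 1 and 3, and null library 2 had none.

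The lengths of the peak lists differed between the lines. The lists held 72840 to 74352 peaks in R172H libraries, 75314 to 79424 in R245W libraries and 65199 to 65942 in null libraries, and read depth is unknown. Every count was therefore repeated with each list cut to its strongest 65199 peaks, called equal list lengths here. This shifted the median log2 fold change of all genes from 0.06 to -0.051 for R172H against null and from 0.15 to 0 for R245W against null. Of 10 osteoblast marker genes, 9 were open at a gene end in every library (Bglap in none). The ends of Pecam1, Cdh5 and Tek (endothelial), Ptprc (haematopoietic), Cdh1 and Krt18 (epithelial), Myf5 and Myog (skeletal muscle) and Neurod1 (neural) were open in no library. Other such markers had an end open in all 9 libraries: 1 of 5 endothelial, 2 of 5 haematopoietic and 2 of 5 epithelial genes. The same held for 1 of 5 skeletal muscle and 1 of 5 neural genes. The end of Csf1r (haematopoietic) was open in R245W and not in R172H or null, that of Epcam (epithelial) in R245W and not in R172H, that of Sox2 (neural) in R245W and null but not R172H, and that of Gfap (neural) in null and in neither mutant line. Their part in the results was not tested. In bulk libraries, fewer cells with an open site and a weaker opening per cell cannot be told apart.

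Most of the patterning genes were open in every line. A gene end was open in all 9 libraries for 30 of the 48 genes (62.5%), against 55% of all protein-coding genes. It was open in no library for 5 (10.4%), Tbx4, Tbx5, Pax9, Meox2 and Barx1, against 31.3% of all genes. The RefSeq start of Pax9 lies within its listed span and had a peak in all 9 libraries. The other 13 genes were open in some libraries. The window of 50 kb around the genes held a median of 5.67 peaks in the R172H line, 7.83 in the R245W line and 6 in the null line, against medians of 6.67, 7.33 and 6.33 over all genes in the same order of lines. Line means per gene ran up to 23.7 peaks in the R172H line (Meis1), 22 in the R245W line (Prrx2) and 23.7 in the null line (Prrx2).

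**Figure D1:**
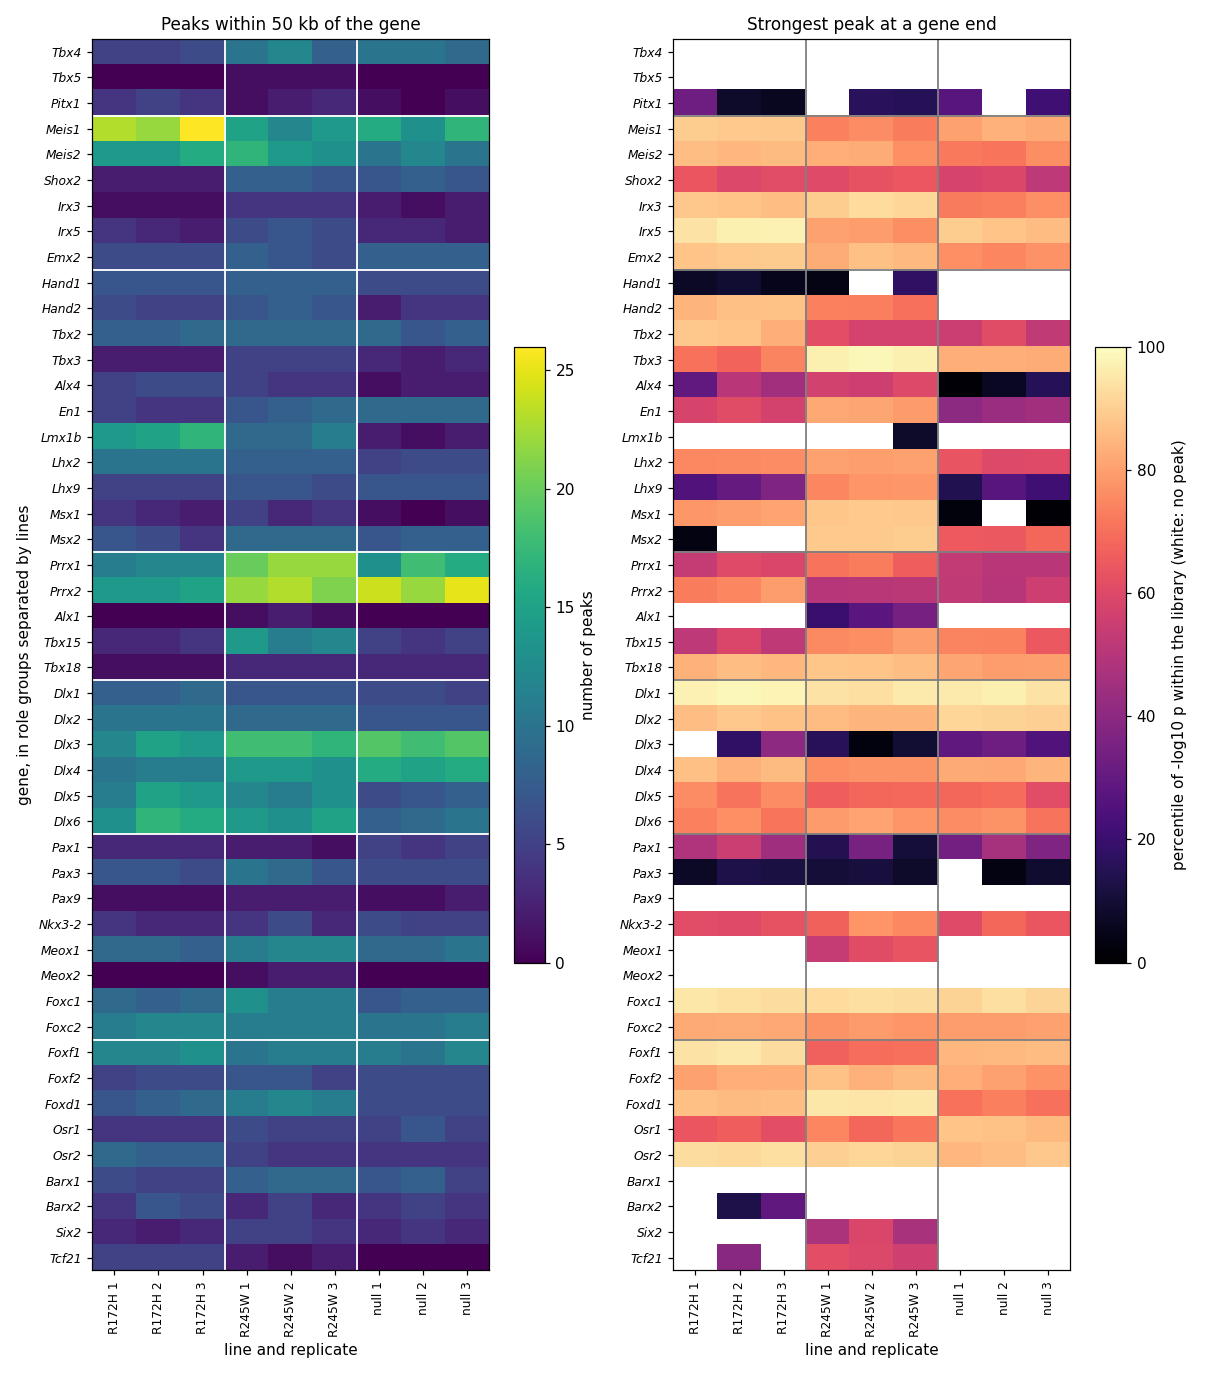
Left, peaks within 50 kb of each of the 48 genes (colour, number of peaks) in the 9 libraries (columns), with genes in role groups. Right, percentile of the strongest peak at a gene end within its library, white where there is none. Libraries of a line look alike, and the white cells show no gene end peak at Hand2 in the 3 null libraries and at Six2, Meox1 and Alx1 outside the 3 R245W libraries.

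The number of peaks differed between lines at many of these loci, in both directions. Of the 48 genes, 45 passed the minimum of a mean of 1 peak (Tbx5, Alx1 and Meox2 did not). Against null, R172H had more peaks at 16 genes and fewer at 13 (limma, adjusted p under 0.05), where 27.8% and 16.4% of all tested genes were called higher and lower. These 29 genes compare with 44.2% of all genes called in either direction. With equal list lengths, which left 44 genes tested, it had more at 10 and fewer at 15, where 20% and 27.5% of all genes were called. R245W had more peaks than null at 21 genes and fewer at 2, where 31% and 6.72% of all genes were called (37.7% in either direction), and with equal list lengths more at 12 and fewer at 8, where 16.2% and 19% were called. R172H had more peaks than R245W at 8 genes and fewer at 21, where 14.6% and 26.4% were called (40.9% in either direction), and with equal list lengths more at 8 and fewer at 19, where 19.3% and 24.2% were called. The median log2 fold change over the 45 genes was 0.06 for R172H against null, 0.32 for R245W against null and -0.33 for R172H against R245W, against 0.06, 0.15 and -0.07 over all genes. Without R172H replicate 2 or 3, 5 genes had more peaks in R172H than in R245W, and without R245W replicate 3 or null replicate 1 or 3, 1 gene had fewer in R245W than in null. These 3 comparisons share libraries, so their counts are not independent of each other. Lines whose libraries do not overlap were common. Over all tested genes, every R172H library lay above every null library at 28.5% and below at 16.6%. The shares were 33.3% and 7.51% for R245W against null, and 15.5% and 27.4% for R172H against R245W. A lack of overlap at a gene named below is to be read beside these shares. Where the 3 libraries of each line gave the same count, as at Hand1 and Tbx18, the standard error comes from the spread limma shares over genes, and a single peak can pass the threshold.

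**Figure D2:**
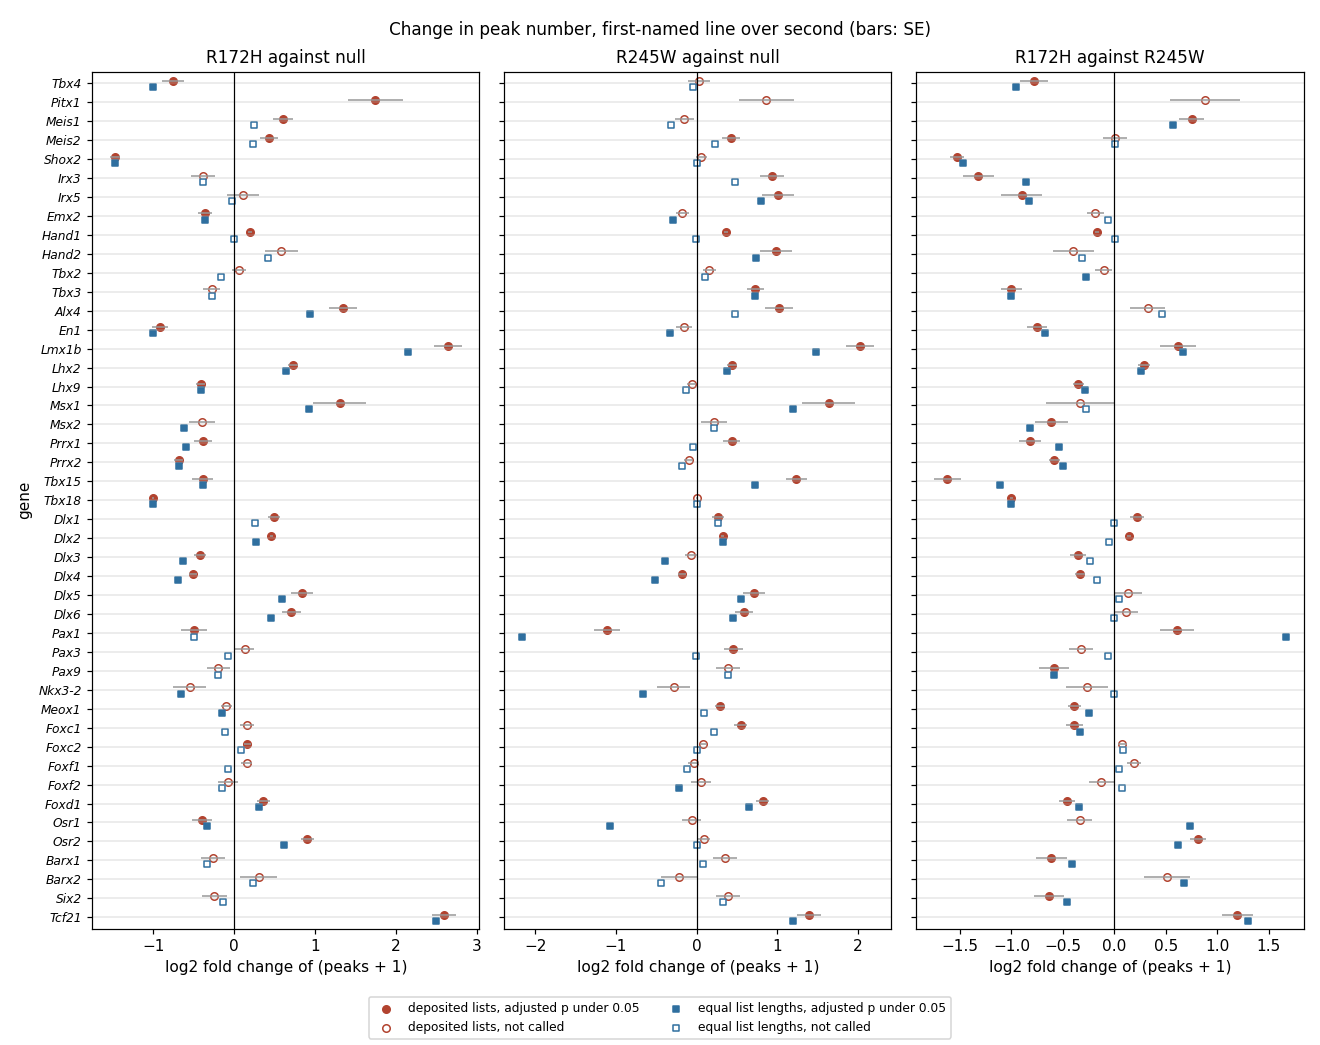
Log2 fold change of (peaks + 1) within 50 kb for the 45 tested genes, first-named line over second, with the standard error of the deposited lists as bars. Circles are the deposited lists and squares equal list lengths (44 genes), filled where the adjusted p is under 0.05. Lmx1b and Tcf21 lie farthest to the right in R172H against null, and Tbx15 and Shox2 farthest to the left in R172H against R245W.

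Among the limb field genes, the hindlimb factor Tbx4 had fewer peaks in the R172H line than in the other lines. Tbx4 (chr11:85886367-85916097) had 5, 5 and 6 peaks in R172H libraries, 10, 12 and 8 in R245W libraries and 10, 10 and 9 in null libraries. The R172H libraries lay below all others, while R245W and null overlapped. In R172H Tbx4 fell by 0.78 on the log2 scale against R245W (SE 0.14, limma adjusted p = 0.00389) and fell by 0.75 against null (adjusted p = 0.00414). The call against R245W is lost in a window of 20 kb (adjusted p = 0.376). Pitx1 (chr13:55825044-55836190) had 4, 5 and 4 peaks in R172H libraries, 1, 2 and 3 in R245W libraries and 1, 0 and 1 in null libraries. It rose in R172H against null by 1.74 (SE 0.34, adjusted p = 0.00606), but did not pass the threshold against R245W (0.88, SE 0.34, adjusted p = 0.0783, and 0.0363 without null replicate 2). With equal list lengths Pitx1 had 2, 0 and 0 peaks in R172H libraries and 1, 0 and 1 in null libraries, a mean of 0.667 in both, so the rise was absent and the gene fell under the minimum for testing. Its gene end peaks were weak, at percentile 32.6 or below. Tbx5, the forelimb factor, had 1 peak in each R245W library and none in the others.

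In the proximal limb group, Meis1 gained peaks in the R172H line and Shox2 lost them. Meis1 (chr11:18880428-19019651), a cofactor of Hox proteins in proximal limb, had 23, 22 and 26 peaks in R172H libraries, 15, 12 and 14 in R245W libraries and 16, 13 and 17 in null libraries. Every R172H library lay above every other. The log2 fold change was 0.75 against R245W (SE 0.12, adjusted p = 0.00284) and 0.60 against null (SE 0.12, adjusted p = 0.0066), and the call against null was lost with equal list lengths (0.25, adjusted p = 0.092). Its gene end was open in all 9 libraries. Of the 38 regions in its window, 8 were found in every R172H library and nowhere else, and 4 in every R245W and null library but in no R172H library. The strongest of the 8, at chr11:18892316-18893376 within the gene span, had a percentile of 83.5 or more in R172H.

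Shox2 (chr3:66971723-66981771), needed for growth of the humerus and femur, had 2 peaks in each R172H library, 8, 8 and 7 in R245W libraries and 7, 8 and 7 in null libraries. In R172H it fell by 1.47 against null (SE 0.06, adjusted p = 4.28e-06) and fell by 1.53 against R245W (SE 0.06, adjusted p = 3.75e-06), with no overlap between R172H and either line. The 2 peaks of R172H, at the higher-coordinate gene end and 3575 bp beyond it, were called in all 9 libraries, and the first also lies at an end of Rsrc1. The 3 regions called in both other lines and not in R172H lay within the gene span or at its lower-coordinate end. Irx3, expressed with Irx5 in early hindlimb mesenchyme, had 1 peak in each R172H library, 4 in each R245W library and 2, 1 and 2 in null libraries. Irx5 had 4, 3 and 2 peaks in R172H libraries, 6, 7 and 6 in R245W libraries and 3, 3 and 2 in null libraries. Both rose in R245W against null, Irx3 by 0.93 (adjusted p = 0.00335) and Irx5 by 1.01 (adjusted p = 0.00792), though Irx3 not with equal list lengths (adjusted p = 0.0899).

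**Figure D3:**
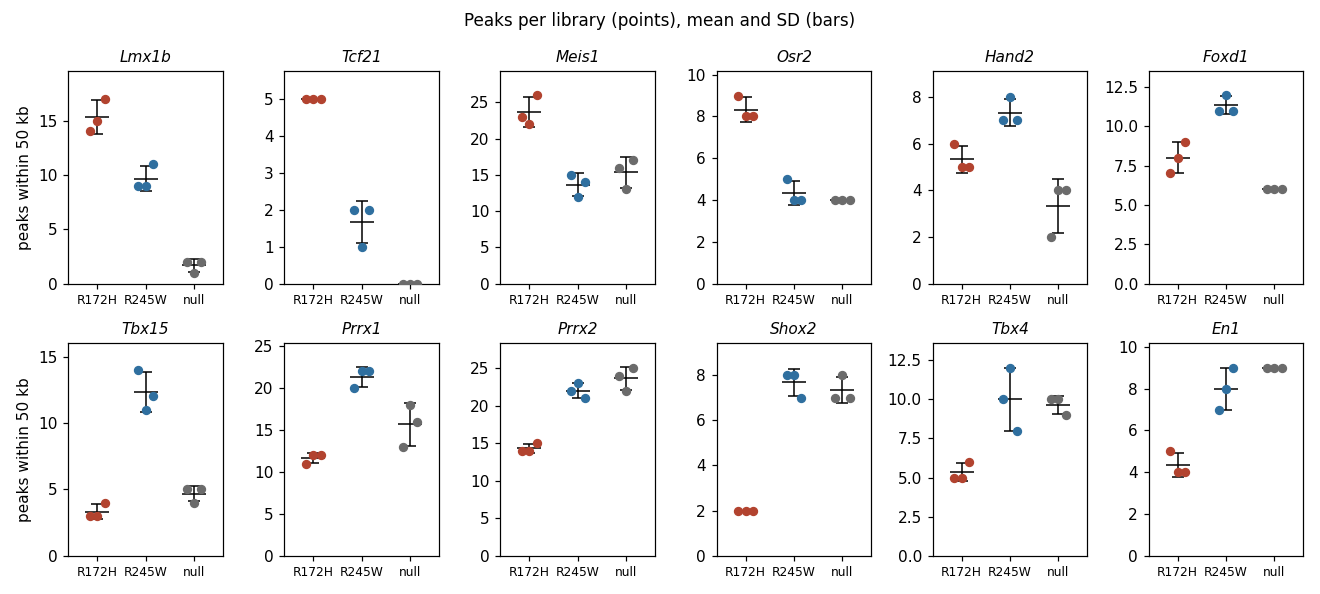
Peaks within 50 kb in each library (points) for 12 genes with large differences, with the line mean and SD (bars, n = 3 libraries), R172H, R245W and null from left to right. Lmx1b, Tcf21, Meis1 and Osr2 are highest in R172H, and Tbx15 and Foxd1 in R245W, and the bottom row also shows Prrx2, Shox2, Tbx4 and En1 lowest in R172H.

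Among genes of the limb axes, Lmx1b showed the largest difference in mean peak number of the 48 genes. Lmx1b (chr2:33560965-33641208), which specifies dorsal limb, had 14, 15 and 17 peaks in R172H libraries, 9, 9 and 11 in R245W libraries and 2, 1 and 2 in null libraries. The 3 lines did not overlap. It rose against null by 2.64 in R172H (SE 0.17, adjusted p = 3.96e-05) and by 2.02 in R245W (SE 0.17, adjusted p = 0.000224), and equal list lengths gave 2.15 and 1.48. All genes of chromosome 2 had median log2 fold changes of 0.27 and 0.24 in the same comparisons. The difference of 0.62 between R172H and R245W passed (SE 0.17, adjusted p = 0.0274), but not without R172H replicate 2 (adjusted p = 0.0647) or 3 (0.085), nor without R245W replicate 1 (0.0815) or 2 (0.083). Within 1000 bp of the gene's ends, 1 R245W library alone had a peak, at percentile 7.98. Of its 24 regions, 4 belonged to every R172H library and to none besides, 1 likewise to R245W, and 2 were found in each mutant library but not in null. None lay at the end of another gene. Among the 4 of R172H, chr2:33642719-33643531 began 1511 bp beyond the higher-coordinate end, where the gene starts. Another, chr2:33639042-33640065, lay inside the span near that end.

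Hand2 (chr8:57320983-57324517), which acts upstream of Shh, had 6, 5 and 5 peaks in R172H libraries, 7, 8 and 7 in R245W libraries and 2, 4 and 4 in null libraries. It rose in R245W against null by 0.98 (SE 0.20, adjusted p = 0.00907). In R172H the log2 difference from null was 0.58 (SE 0.20, adjusted p = 0.0519) and did not pass. With equal list lengths it was 0.42 (adjusted p = 0.125). The difference stayed uncalled in 15 alternatives and passed in 5. Among the 5 were the fits without null replicate 1, 2 or 3 (adjusted p = 0.0301, 0.0468 and 0.0464). Besides the promoter region chr8:57320685-57322473, the R172H line had its own region at chr8:57356135-57357190 and the R245W line its own at chr8:57312038-57313228. Hand1 (chr11:57828713-57832147), a related basic helix-loop-helix factor, had 7 peaks in each R172H library, 8 in each R245W library and 6 in each null library. Its gene end was open in the 3 R172H libraries and no null library, but at percentiles 7.21, 9.0 and 5.35, and with equal list lengths neither this nor the difference in peak number remained (0, adjusted p = 1).

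Alx4, a restraint on anterior Shh, and Msx1, a target of BMP signals, had more peaks in both mutant lines than in null. Alx4 had 5, 6 and 6 peaks in R172H libraries, 5, 4 and 4 in R245W libraries and 1, 2 and 2 in null libraries, and rose by 1.34 in R172H (adjusted p = 0.000966) and by 1.02 in R245W (adjusted p = 0.0043), though not in R245W with equal list lengths (adjusted p = 0.0901). Msx1 had 4, 3 and 2 peaks in R172H libraries, 5, 3 and 4 in R245W libraries and 1, 0 and 1 in null libraries, and rose by 1.3 in R172H (adjusted p = 0.0162) and by 1.64 in R245W (adjusted p = 0.00824). Neither gene's null libraries overlapped those of a mutant line, which also held at many other genes (shares above). Lhx2, which relays ridge signals in distal mesenchyme, rose likewise against null, by 0.73 in R172H and by 0.44 in R245W.

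En1 (chr1:120602487-120607991), a ventral ectoderm factor also used in bone-forming mesenchyme, had 5, 4 and 4 peaks in R172H libraries, 7, 8 and 9 in R245W libraries and 9 in each null library. In R172H it fell by 0.91 against null (SE 0.10, adjusted p = 0.000448) and fell by 0.75 against R245W (SE 0.10, adjusted p = 0.00128). Its promoter window had a peak in R172H and none in null. The null peaks began past that window, but merged with those of the other lines into 1 region (chr1:120601976-120603993) called in all 3 lines. A peak lay within 1000 bp of the start in all 3 null libraries. The lines thus differed in where the peak began, and the null promoter was not shown to be closed. Msx2, another BMP target, had gene end peaks at percentiles 88.7 to 89.7 in R245W libraries and 64.6 to 68.2 in null libraries. In the R172H line library 1 alone had one, at percentile 3.34, and with equal list lengths no R172H library did. Lhx9 had its gene end open in all 9 libraries, at percentiles 25.4 to 36.7 in R172H, 74.7 to 78.5 in R245W and 14.3 to 27.1 in null.

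All 4 tested genes of the paired-type and T-box skeletal mesenchyme group had fewer peaks in R172H than in either other line, with deposited and with equal lists. Of all tested genes, 16.4% were lower in R172H than in null and 26.4% than in R245W, and 27.5% and 24.2% with equal lists. The group leaves out Alx4, of the same family as Alx1, which is counted with the limb axis genes. In R172H Alx4 rose against null by 1.34 (adjusted p = 0.000966) and was not called against R245W (adjusted p = 0.178). Prrx2 (chr2:30845064-30881251), a limb bud mesenchyme factor, had 14, 14 and 15 peaks in R172H libraries, 22, 23 and 21 in R245W libraries and 24, 22 and 25 in null libraries. In R172H it fell by 0.68 against null (SE 0.06, adjusted p = 0.000115) and fell by 0.58 against R245W (SE 0.06, adjusted p = 0.000295). Prrx1 (chr1:163245119-163315145), its close relative, had 11, 12 and 12 peaks in R172H libraries, 20, 22 and 22 in R245W libraries and 13, 18 and 16 in null libraries. In R172H it fell by 0.39 against null (SE 0.11, adjusted p = 0.0246) and fell by 0.82 against R245W (SE 0.11, adjusted p = 0.0013), and no lines overlapped. The rise of Prrx1 in R245W against null (0.43, SE 0.11, adjusted p = 0.0192) was not held with equal list lengths (-0.049, adjusted p = 0.807) or without R245W replicate 2 (adjusted p = 0.0617) or 3 (0.0589). Both Prrx genes kept an open gene end in all 9 libraries.

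Tbx15 (chr3:99240348-99354260), which shapes the scapula and other bones, had 3, 3 and 4 peaks in R172H libraries, 14, 11 and 12 in R245W libraries and 5, 4 and 5 in null libraries. R245W stood above the other lines, rising by 1.23 against null (SE 0.13, adjusted p = 0.000561), and R172H against R245W was -1.62 (SE 0.13, adjusted p = 0.000129). R172H against null was -0.39 (SE 0.13, adjusted p = 0.0453), and the libraries of these lines overlapped. Of its 15 regions, 4 appeared in every R245W library and nowhere else. The median of all genes of chromosome 3 was 0.21 for R245W against null and -0.32 for R172H against R245W. Tbx18, its partner in scapula development, had 1 peak in each R172H library and 3 in every R245W and null library. Alx1 (chr10:103007847-103029549), a craniofacial factor, had no peak in any R172H or null library and 1, 2 and 1 in R245W libraries. Its gene end region in R245W, chr10:103027637-103028799, ranked at percentiles 19.9, 27.6 and 34.5 and also lies at an end of Gm34298.

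The Dlx genes lie in 3 pairs of neighbours, and the pairs moved in different directions in R172H against null. All 4 genes of the Dlx1 and Dlx5 pairs rose and both of the Dlx3 pair fell, where 27.8% and 16.4% of all genes were called higher and lower, and with equal list lengths Dlx1 did not pass (0.26, adjusted p = 0.0711). The windows of each pair share most of their regions: 10 of the 11 of Dlx1 and the 12 of Dlx2, 19 of the 24 of Dlx3 and the 19 of Dlx4, and 17 of the 17 of Dlx5 and the 19 of Dlx6. So the members of a pair are not separate observations, and the same holds in part for Tbx4 and Tbx2 (5 shared regions) and Foxc2 and Foxf1 (14). Dlx5 (chr6:6877801-6882068), an osteoblast and limb ridge factor, had 11, 15 and 14 peaks in R172H libraries, 12, 11 and 13 in R245W libraries and 6, 7 and 8 in null libraries. Both mutant lines lay above null, by 0.84 in R172H (SE 0.13, adjusted p = 0.00256) and 0.71 in R245W (SE 0.13, adjusted p = 0.00681), and with equal list lengths by 0.59 and 0.54. With covered base pairs in place of peaks the R172H call was lost (adjusted p = 0.282). Dlx6 (chr6:6863334-6867970) had 13, 17 and 16 peaks in R172H libraries, 14, 13 and 15 in R245W libraries and 8, 9 and 10 in null libraries. The median log2 fold change against null of all genes of chromosome 6 was 0.24 in R172H and 0.32 in R245W, and after centring on the chromosome Dlx5 did not pass in R245W (adjusted p = 0.0615).

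Dlx3 and Dlx4 went the other way in R172H. Dlx3 (chr11:95120117-95125296), used in teeth, skin and bone, had 12, 15 and 14 peaks in R172H libraries, 18, 18 and 17 in R245W libraries and 19, 18 and 19 in null libraries. Dlx4 (chr11:95140447-95146294) had 10, 11 and 11 in R172H libraries, 14, 14 and 13 in R245W libraries and 16, 15 and 16 in null libraries. R172H lay below the other lines at both genes, and against null Dlx3 fell by 0.43 (SE 0.07, adjusted p = 0.00352) and Dlx4 fell by 0.52 (SE 0.05, adjusted p = 0.000236). In R245W Dlx4 also fell by 0.18 against null (adjusted p = 0.0232), a call lost without R245W replicate 3 (adjusted p = 0.0651) and without null replicate 1 (0.0702) or 3 (0.0696). Dlx1, a factor of the first pharyngeal arch like Dlx2, had 8, 8 and 9 peaks in R172H libraries, 7 in each R245W library and 6, 6 and 5 in null libraries. Dlx2 had 10 in each R172H library, 9 in each R245W library and 7 in each null library. The Dlx1 promoter was among the strongest peaks of every library, at percentile 93.7 or above.

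In the somite group, R245W had more peaks than null at Meox1, Foxc1 and Pax3 and fewer at Pax1, and of these 4 calls that of Pax1 alone held with equal list lengths. Meox1 (chr11:101877510-101894354), a sclerotome homeodomain factor, had 9, 9 and 8 peaks in R172H libraries, 11, 12 and 12 in R245W libraries and 9, 9 and 10 in null libraries. R245W lay above the other lines, and R172H fell by 0.39 against R245W (SE 0.06, adjusted p = 0.0028). The rise of R245W against null (0.29, adjusted p = 0.0103) was not held with equal list lengths (adjusted p = 0.0968). The lines used different sites: its gene end region chr11:101893565-101894818 was called in the 3 R245W libraries alone, at percentiles 53.8, 60.9 and 63.5, and chr11:101878571-101879373 within the span in the 3 null libraries alone, at percentile 49.1 or above. A further 3 regions were found in each mutant library but not in null.

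Pax1 (chr2:147361930-147375049), a sclerotome marker, had 3 peaks in each R172H library, 2, 2 and 1 in R245W libraries and 5, 4 and 5 in null libraries. Null lay above both, and R245W fell by 1.11 (SE 0.16, adjusted p = 0.00242), a call not held in a window of 20 kb (adjusted p = 0.107). The RefSeq start of Pax1 lies within its listed span. A peak lay within 1000 bp of that start in all 3 R172H libraries and in no R245W or null library. Nkx3-2 (chr5:41761483-41764220), which promotes cartilage in the sclerotome, had 4, 3 and 3 peaks in R172H libraries, 4, 6 and 3 in R245W libraries and 6, 5 and 5 in null libraries. It did not pass the threshold in either mutant line with the deposited lists (adjusted p = 0.0662 in R172H and 0.321 in R245W), and it fell by 0.66 in both with equal list lengths (adjusted p = 0.00015 and 0.000239). Foxc1 rose in R245W against null by 0.55 (adjusted p = 0.00272), though not with equal list lengths (adjusted p = 0.123). Meox2 had a total of 1, 2 and 2 peaks in the R245W libraries and none elsewhere.

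Among the other mesenchymal factors, Tcf21 had no called peak in null, and the mutant lines shared 1 of its 6 regions. Tcf21 (chr10:22817263-22820143), a factor of lung, kidney and heart mesenchyme, had 5 peaks in each R172H library, 2, 1 and 2 in R245W libraries and none in any null library. The lines did not overlap, and both mutant lines passed against null (adjusted p = 1.89e-05 in R172H and 0.000596 in R245W). R172H also rose against R245W, by 1.19 (SE 0.15, adjusted p = 0.000978). Of its 6 regions, 4 were called in R172H alone, among them chr10:22821116-22822406, which begins 973 bp beyond the higher-coordinate end. The R245W line had its own region, chr10:22815475-22816594, which ends 669 bp from the lower-coordinate end, at percentiles 61.8, 59.5 and 55.9. Within 1000 bp of the gene ends, R172H had a peak in library 2 alone. Tcf21 lies on the - strand, so its RefSeq start is the higher-coordinate end. Within 1000 bp of that start, R172H library 2 had a peak and no R245W or null library did. The shared region, chr10:22777871-22778563, lay 38700 bp below the gene and was called in the 3 R172H libraries and in R245W libraries 1 and 3.

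**Figure D4:**
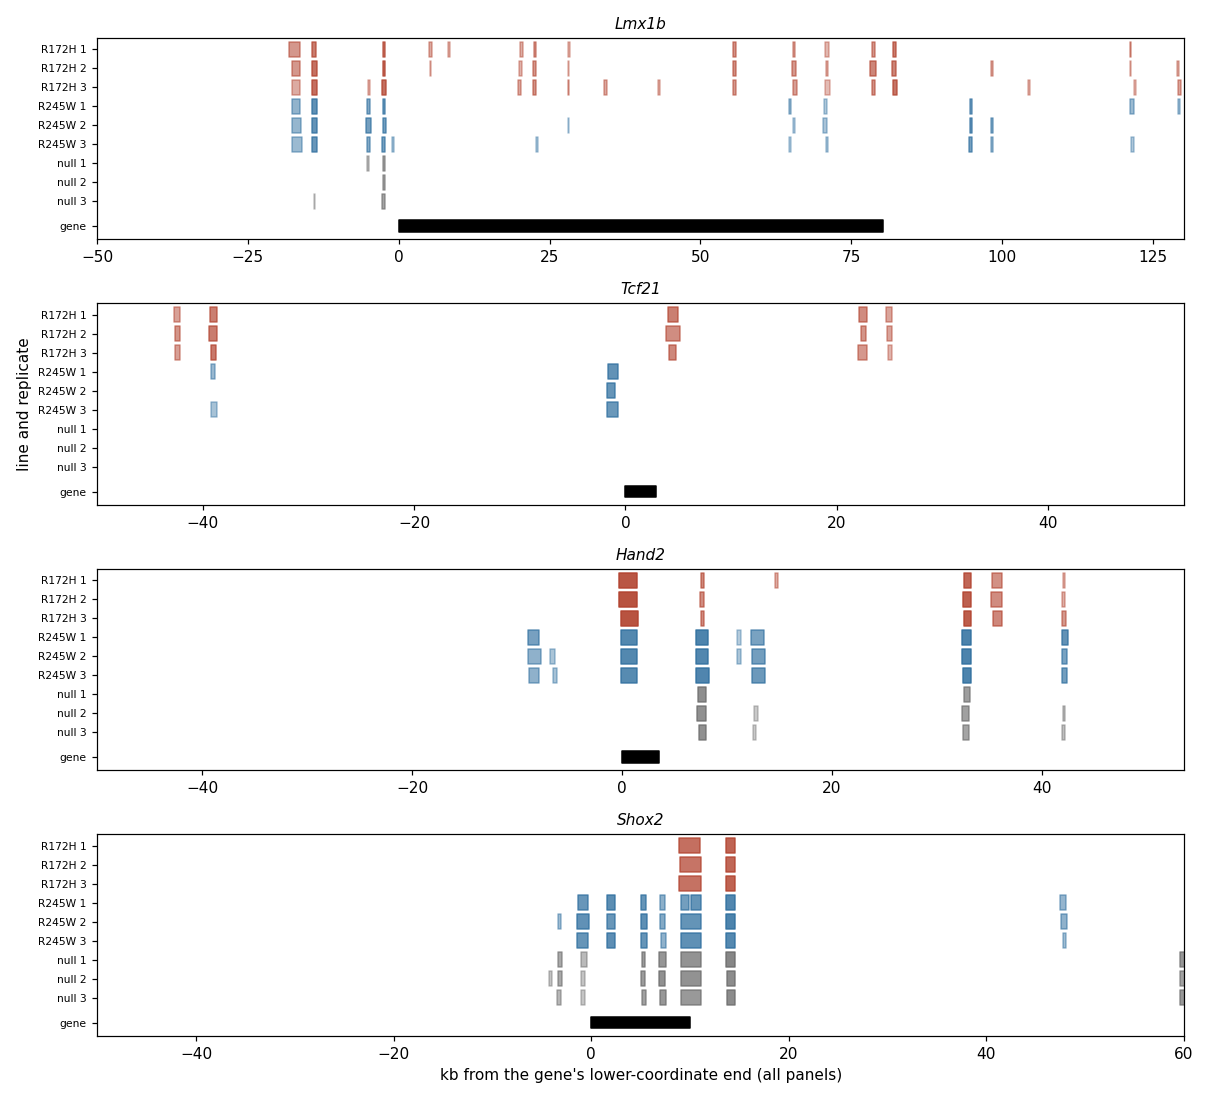
Peaks (boxes) in each library around Lmx1b, Tcf21, Hand2 and Shox2, by distance in kb from the gene's lower-coordinate end, R172H, R245W and null from top to bottom. Darker boxes have a higher percentile within their library, and the black bar is the gene. The null libraries have 1 or 2 peaks near Lmx1b and none near Tcf21, and lack the peak over the Hand2 start, and the R172H libraries have 2 peaks near Shox2.

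Osr2 and Foxd1 separated the mutant lines in opposite directions. Osr2 (chr15:35296098-35303305), a factor of joints and palate, had 9, 8 and 8 peaks in R172H libraries, 5, 4 and 4 in R245W libraries and 4 in each null library. It rose in R172H by 0.81 against R245W (SE 0.08, adjusted p = 0.000359) and by 0.90 against null (SE 0.08, adjusted p = 0.000182). Foxd1 (chr13:98354245-98356705), a marker of kidney stroma, had 7, 8 and 9 peaks in R172H libraries, 11, 12 and 11 in R245W libraries and 6 in each null library. It rose against null by 0.36 in R172H (adjusted p = 0.0101) and by 0.82 in R245W (SE 0.08, adjusted p = 0.000389). Its gene end peaks ranked at percentiles 85.6 to 87.1 in R172H, 94.9 to 95.0 in R245W and 70.2 to 73.1 in null.

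Six2 (chr17:85662736-85688254), a factor of nephron progenitors and skull base, had 3, 2 and 3 peaks in R172H libraries, 5, 5 and 4 in R245W libraries and 3, 4 and 3 in null libraries. R172H fell by 0.64 against R245W (SE 0.15, adjusted p = 0.0139), and R245W against null was 0.39 (SE 0.15, adjusted p = 0.0809). What set R245W apart was the peak over the start, chr17:85687785-85689312, at percentiles 47.4, 58.7 and 47.2. Osr1 had 4 peaks in each R172H library, 6, 5 and 5 in R245W libraries and 5, 7 and 5 in null libraries. With equal list lengths it had 4 in each R172H library, 2 in each R245W library and 5, 6 and 5 in null libraries, so the order of R172H and R245W turned with the list length.

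Counted over gene ends, 2 genes were open in R172H and not in null (Hand1 and Hand2) and none the other way, where 3.19% and 1.27% of all genes were called. A set of 5 was open in R245W and not in null (Hand2, Alx1, Meox1, Six2 and Tcf21) and none the other way, where 3.3% and 0.544% were called. At Tcf21 the open end was not the RefSeq start, which had a peak in no R245W library. Another 3 were open in R245W and not in R172H (Alx1, Meox1 and Six2) and none the other way, where 2.57% and 1.61% were called. With equal list lengths Hand2 alone was open in R172H and not in null (2.71% of all genes), and Msx2 in null and not in R172H (1.66%). The 5 genes of R245W against null were the same (2.59%, with none the other way and 0.959% of all genes), and Msx2 joined the 3 genes open in R245W and not in R172H (2.64%, with none the other way and 1.92%). Without R172H replicate 1, Barx2 joined Hand1 and Hand2 in R172H against null and Msx2 appeared on the null side, 4 genes in all. In R172H against R245W the same omission gave 5 in all, with Barx2 and Msx2 added.

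Merged over all libraries, the 48 windows held 511 regions. Of these, 145 (28.4%) were called in all 9 libraries, against 31.7% of the 104576 regions near protein-coding genes. Those found throughout 1 line and nowhere else numbered 49 (9.59%) for R172H, 46 (9.0%) for R245W and 8 (1.57%) for null, against 8.73%, 5.19% and 2.59% of regions near genes. Those called in R172H and R245W and not in null numbered 12 (2.35%, against 2.81%), those in R172H and null alone 3 (0.587%, against 0.826%), and those in R245W and null alone 38 (7.44%, against 6.04%). The R172H-only regions with the strongest peaks lay in the windows of Meis1, Osr2 (chr15:35318637-35319665, percentile 79.2 or above) and Lhx2 (chr2:38368696-38369191, 75.0 or above). Those of R245W lay near Shox2 (chr3:66973359-66974120, 57.0 or above), Tcf21 and Meox1, and those of null near Meox1, Meis1 (chr11:18845294-18846128, 42.5 or above) and Shox2 (chr3:67031310-67032033, 42.1 or above).

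The signalling genes that work with these factors had more peaks in the mutant lines at many loci. Of 40 genes of the Fgf, Shh, Bmp, Wnt and retinoic acid pathways and their factors, R172H had more peaks than null at 19 and fewer at 1, and R245W more at 16 and fewer at 2. With equal list lengths these were 14 and 5, and 12 and 7. R172H had more than R245W at 11 and fewer at 5, and with equal list lengths at 12 and 5. The shares of all genes called are those given above. Aldh1a2, which makes retinoic acid, had 13, 13 and 11 peaks in R172H libraries, 5, 6 and 6 in R245W libraries and 1 in each null library, with its gene end open in the R172H libraries alone. The gene ends of Chrd, Bmpr1b and Sall1 were also open in R172H and not in null, and those of Bmpr1b and Sall4 in R245W and not in null. The end of Bmp7 was open in R172H and not in R245W. Sp8, a factor of the limb ridge, had its gene end open in R245W and null and in no R172H library, while its peak number was 7, 7 and 7 in R172H libraries, 7, 6 and 7 in R245W libraries and 7 in each null library. The end of Shh itself was open in no library.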

How the data were processed

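ATAC-seq cuts accessible DNA with the Tn5 transposase, and dense cuts are called as peaks. The genome build was GRCm38, and deepTools, MACS2 2.1.0, Bowtie 1.1.2, Trimmomatic 0.33 and bcl2fastq 2.17 were used, per the submitters' processing notes. Their settings and any Tn5 shift are not known here. The authors deposited 1 unpooled peak list per library, which gives for every peak a -log10 p-value, a -log10 q-value, a fold ratio over background and a score. These values of the authors served to rank and filter peaks inside their own list. Read depth is unknown, and the number of called peaks follows from it in part.

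Peaks were counted per library over each RefSeq protein-coding gene span (GRCm38.p6) plus 50000 bp on each side, with an overlap of 1 bp, and at gene ends within 1000 bp. Counts as log2(peaks + 1) were fitted with limma 3.58.1 (eBayes with trend, R 4.3.3) over 18349 genes with a mean of 1 peak or more, all 9 libraries sharing one estimate of spread, with Benjamini-Hochberg adjustment and a threshold of 0.05. Fold changes of low counts are understated on this scale. On data simulated for R172H against null over those 18349 genes, 184 of 200 changed genes were recovered and 36 others were called. The changed genes had their peak number doubled and were drawn under a higher minimum of peaks. Recovery at genes with few peaks or smaller changes was not measured. Unchanged genes were drawn around their mean over the 9 libraries with independent spread. The number of others called therefore does not measure false calls in the real lists. Gene ends called in 3 of 3 libraries of one line and 0 of 3 of another have no test, since an exact permutation of 3 against 3 cannot go below 0.1. Every count was repeated with each list cut to its 65199 strongest peaks by -log10 p, and under other windows, thresholds and fits.

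The genes and lists were chosen with earlier results of these data known. Values in every library are given for members with such a gene end difference and for the 5 members with the largest difference in mean peaks in each direction of each pair; others named were chosen after their values were seen. Python 3.11.15, numpy 2.4.6, pandas 2.3.3 and matplotlib 3.10.9 were used.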

Additional observations from a re-analysis of the deposited data

How the results depend on the processing

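Direction and call were the same in 710 comparisons of a named gene with an alternative, weaker in 32 and stronger in 14. They reversed in 3: Hand1 in R172H against null within 100 kb (-0.042), Prrx1 in R245W against null with equal list lengths (-0.049) and Prrx2 in R245W against null by covered base pairs (0.10). Lmx1b and Tcf21 in both mutant lines against null, and Shox2, Prrx2 and En1 in R172H against null, held their calls under every alternative run. With equal list lengths, genes with more peaks numbered 10 for R172H against null and 12 for R245W against null, and those with fewer 8 for R245W against null. Centring on each chromosome gave 10 and 13 with more peaks against null, 6 with fewer in R245W, and 5 with more in R172H than in R245W. A -log10 q of 5 or more and a window of 20 kb each gave 5 with more in R172H than in R245W. Within 100 kb, 8 genes had fewer peaks in R172H than in null and 1 in R245W than in null. The cause was not tested. Gene ends open in R172H or null alone numbered 1 within 500 bp and 5 within 2500 bp, and those of R245W against null 2 at the RefSeq start alone, which the promoter table gives for 28 of the genes. Shares of all genes called are given above for the deposited and equal lists alone. No share of all genes is given for the other counts here or for those with a library left out. Those counts show how far the numbers move with the setting and are not results about these genes.

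With each library left out in turn, changed genes numbered 24 to 30 for R172H against null, 19 to 24 for R245W against null and 24 to 31 for R172H against R245W. Those with more peaks numbered 14 to 17, 17 to 22 and 5 to 9, those with fewer 9 to 14, 1 to 3 and 18 to 22, and gene ends of 1 line 2 to 4, 5 to 6 and 3 to 5. Without R172H replicate 2 or 3, 5 genes had more peaks in R172H than in R245W. Without R245W replicate 3 or null replicate 1 or 3, 1 gene had fewer in R245W than in null. Correlations of deviations were -0.00262 to 0.0228 between libraries with the same replicate number and -0.023 to 0.0245 between others. In 8 of 18 comparisons a library went best with its own number. No pairing by number was seen, but values this small cannot exclude a shared preparation, which the labels do not give. The fit with a replicate block gave 1 gene with fewer peaks in R245W than in null. Read depth, which is unknown, limits how far a missing peak can be read as closed chromatin.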
